A study of Mus musculus with 91 samples.

Results

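Nucleotide synthesis was followed through 32 genes, chosen by symbol from a list of enzymes that build, reduce or break down nucleotides or that supply them with one-carbon units. All 32 were found and tested in each of the 8 count tables, which together hold 20378 genes. By role, 2 of the 32 make the activated ribose PRPP (Prps1, Prps2), 6 build the purine ring (Ppat, Gart, Pfas, Paics, Adsl, Atic) and 4 carry the ring on to AMP or GMP (Adss, Impdh1, Impdh2, Gmps). A further 5 build the pyrimidine ring and CTP (Cad, Dhodh, Umps, Ctps, Ctps2), and 5 handle folate one-carbon units in the cytosol (Shmt1, Mthfd1) or the mitochondrion (Shmt2, Mthfd1l, Mthfd2). Deoxynucleotides are supplied by 7 (Rrm1, Rrm2, Tyms, Tk1, Dctd, Dut, Dck) and broken down by 1 (Samhd1), and 2 are nucleoside diphosphate kinases (Nme1, Nme2).

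A resting T cell lives mainly on recycled bases, whereas a lymphocyte that grows makes purines and pyrimidines anew for RNA, and in S phase it also reduces ribonucleotides to the precursors of DNA. The purine and thymidylate pathways consume formyl and methylene groups carried by folate, which serine donates through the SHMT and MTHFD enzymes. Genes of the ring and folate steps are known targets of Myc, and ribonucleotide reductase, thymidylate synthase and thymidine kinase are known targets of E2F factors at the start of S phase.

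Tregs (regulatory T cells, a Foxp3-dependent CD4 lineage that restrains other lymphocytes) were sorted from the spleen of C57/BL6 mice that carry a red fluorescent reporter of FoxP3. All mice shared this strain and reporter, and differed in what was injected: PBS, mouse IL-2 (the growth factor of Tregs), or FP, a fusion of mouse IL-2 with CD25, the alpha chain of its receptor. At 1.5 h and at 16 h after injection each of the treatments PBS, IL-2 and FP had 4 libraries. For PBS, IL-2 and FP in turn, 3, 4 and 3 libraries were taken at 4 h and 3, 3 and 4 at 72 h, while at 168 h only PBS (3) and FP (4) were. PBS and IL-2 were also compared in vitro (1.5 h) and at high dose, with 3 libraries on each side. For restimulation (1.5 h), 3 libraries came from PBS given at both injections, 3 from PBS followed by FP (single) and 4 from FP at both (repeated). The protocol text is the same for all samples and names 20 µg of FP and 100 µL of PBS. Neither the dose of IL-2 nor the time and dose in the high-dose table, the age of the mice or the number of mice behind a library is in the labels.

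Library totals ran from 12.2 to 46.1 M reads, with 12.2 to 15.3 M at 1.5 h and 29 to 46.1 M in the restimulation table. All 10 Treg markers checked (Foxp3, Il2ra and Ctla4 among them) were present in every table, with a summed level of 3820 to 4070 CPM (counts per M reads, scaled between libraries) in the PBS libraries at 1.5 h. B cell markers summed to at most 89 CPM in any library, markers of CD8 T and NK cells to at most 55.4 and those of red cells and platelets to at most 49.7. Myeloid markers varied most, from 374 to 2020 CPM within the IL-2 libraries at 1.5 h alone. No label says whether replicates came from different mice, so the spread behind each p-value is that of these samples alone and may be technical. Each library pools many cells, so a smaller share of cells that express a gene and less of its RNA per cell cannot be told apart.

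RefSeq windows (GRCm38.p6, 250 bases before to 50 after each start) were at hand for 30 of the 32 members and were searched on both strands for 3 motifs. The E-box of Myc and Max (CACGTG) was found in 5 of the 30 (16.7%), against 8.09% of 27025 genes with such windows. An E2F site (TTTCCCGC, TTTGGCGC, TTTCGCGC or TTTGCCGC) was found in 2 (6.67%, against 2.6%), and the composite site of ATF4 (TGATGNAAN, N being any base) in 1 (3.3%, against 4.5%). No E2F letters of this set lie in the windows of the 7 genes of deoxynucleotide supply. These are matches of letters in short windows and not shown to be bound. The stretches below show each match in capitals within 30 bases of the gene's own strand, 5′ to 3′, because they are all the matches of the 3 motifs in the members. The first 6 hold the E-box, the next 3 an E2F site and the last the ATF4 site, and none overlaps a match of another motif.

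Paics, chr5:76951087-76951116, + strand: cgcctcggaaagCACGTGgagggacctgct
Atic, chr1:71557137-71557166, + strand: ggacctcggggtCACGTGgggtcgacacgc
Impdh2, chr9:108560314-108560343, + strand: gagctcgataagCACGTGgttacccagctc
Nme1, chr11:93968273-93968302, - strand: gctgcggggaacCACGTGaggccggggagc
Nme1, chr11:93968037-93968066, - strand, at its other start: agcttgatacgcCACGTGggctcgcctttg
Tyms, chr5:30073669-30073698, - strand: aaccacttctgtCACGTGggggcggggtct
Ppat, chr5:76951771-76951800, - strand: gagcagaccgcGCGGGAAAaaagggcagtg
Ppat, chr5:76951718-76951747, - strand: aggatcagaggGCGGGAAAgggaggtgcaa
Prps2, chrX:167382700-167382729, - strand: cctgctgctgcgtTTTCCCGCttcaccagc
Prps1, chrX:140456422-140456451, + strand: ggctatctttgTGATGTAAAaagtgcttta

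Counted from the RefSeq starts, the E-box lies 7 bases before the start of Atic, 18 or 29 before those of Nme1, 61 before Tyms, 110 before Impdh2 and 203 before Paics. Paics (chr5:76951307-76967509) and Ppat (chr5:76913249-76951578) start next to each other on opposite strands and share 272 exon bases, 8.67% and 6.15% of their exon length. Whether the counting used the strand of reads is not given in the sources used here, so their values are uncertain to that extent. The same holds for Gart, of which 19.7% of the exon bases are shared with an antisense gene, and for Umps with 6.11%. On the same strand, a readthrough gene shares 48.9% of the exon bases of Nme2 and 12.5% of those of Nme1.

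**Figure D1:**
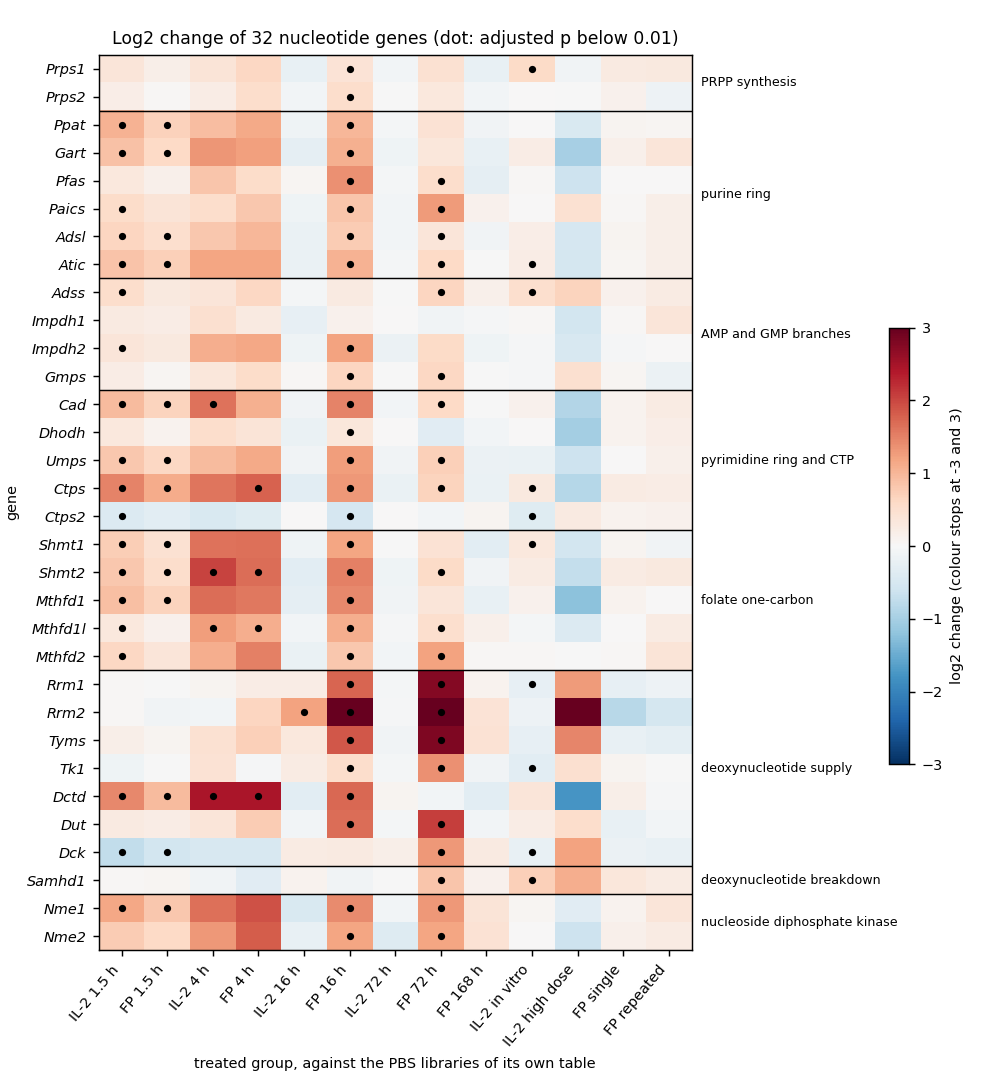
Heat map of the log2 change of the 32 genes (rows, by role) in 13 treated groups (columns), each against the PBS libraries of its own table, with a dot where the edgeR adjusted p is below 0.01. The dots at 1.5 h lie mostly in the ring, pyrimidine and one-carbon rows. Further dots are at Dctd, Nme1, Dck (lower) and, after IL-2, 2 genes of the AMP and GMP branches. The dots of FP at 16 h lie in nearly all rows, and the deepest red is in the Rrm2 row after FP at 72 h (4.62). IL-2 at 72 h and FP at 168 h have no dot.

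The first comparison asks what IL-2 or FP had done 1.5 h after injection, each against the same 4 PBS libraries. Genes for building nucleotides rose within this time: 17 of the 32 were called higher and 2 lower after IL-2, and 12 higher and 1 lower after FP. A gene is called, here and below, at a Benjamini-Hochberg adjusted p below 0.01 of edgeR's quasi-likelihood test over all genes tested. Of all genes, 14.2% were called after IL-2 (8.39% higher) and 6.67% after FP (4.39% higher). The median log2 change of the 32 genes was 0.44 after IL-2 and 0.29 after FP, beside -0.01 over all genes in both.

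The rise covered the purine ring (5 of 6 genes after IL-2, 4 of 6 after FP), the one-carbon genes (5 of 5 and 3 of 5), and 3 of 5 pyrimidine genes after either protein. Of the 7 genes of deoxynucleotide supply, only Dctd was called higher, and Rrm1, Rrm2, Tyms, Tk1 and Dut were not called. Rrm2, the small subunit of ribonucleotide reductase, had 6.58, 7.65, 6.70 and 6.98 CPM with PBS, 7.48, 6.07, 7.99 and 7.03 with IL-2 and 5.96, 5.66, 7.64 and 6.91 with FP. These 3 groups overlapped. Its log2 change was 0.03 after IL-2, with a 95% interval of -0.278 to 0.345.

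Ctps (ENSMUSG00000028633, chr4:120539868-120570276), a CTP synthase that makes the last pyrimidine ribonucleotide, had 20.5, 18.6, 19.3 and 20.9 CPM in the PBS libraries. It had 55.5, 54.9, 51.5 and 60.1 CPM after IL-2 and 46.8, 45.1, 46.4 and 34.2 after FP. All treated libraries lay above all PBS libraries, and the fourth FP library stood below the other FP libraries. The log2 change was 1.48 ± 0.10 (SE) after IL-2 and 1.12 ± 0.10 after FP (edgeR adjusted p = 3.14e-07 and 8.72e-06). Its paralog Ctps2 moved the other way, from 105, 112, 105 and 110 CPM to 80.4, 90.5, 83.8 and 72.5 after IL-2 and 76.8, 90.6, 86.9 and 91.5 after FP, with no overlap between PBS and treated libraries. Ctps2 fell by 0.40 on the log2 scale after IL-2 (adjusted p = 0.00227), and after FP its change of -0.32 was not called (adjusted p = 0.016).

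Dctd (ENSMUSG00000031562, chr8:48099092-48153233), the dCMP deaminase that feeds thymidylate synthesis, had 6.30, 5.49, 5.93 and 5.54 CPM with PBS. Its levels were 15.4, 13.9, 16.2 and 17.6 after IL-2 and 13.8, 10.4, 12.5 and 8.27 after FP, all above the PBS libraries. The changes were 1.44 ± 0.16 and 0.95 ± 0.16 (edgeR adjusted p = 1.65e-05 and 0.00114). Nme1 (ENSMUSG00000037601, chr11:93956979-93968521), which moves phosphate between nucleoside di- and triphosphates, had 21, 19.9, 20.0 and 23 CPM with PBS, 55.6, 35.6, 50.4 and 46.6 with IL-2 and 36.5, 35.6, 42.0 and 32.1 with FP. Again the treated libraries all lay above PBS. The rise of Nme1 was 1.16 ± 0.13 with IL-2 and 0.80 ± 0.13 with FP (edgeR adjusted p = 1.59e-05 and 0.000772).

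In the purine pathway, Ppat (ENSMUSG00000029246), which commits PRPP to the ring, had 41.1, 50, 48.7 and 34.3 CPM with PBS, 97.2, 80.8, 98.5 and 81.7 with IL-2 and 69.3, 78.2, 74.6 and 56.6 with FP. IL-2 raised it by 1.04 ± 0.13 and FP by 0.68 ± 0.13, with every treated library above every PBS library. Atic, the bifunctional enzyme that closes the ring to IMP, had 85.0, 93.8, 101 and 83.2 CPM with PBS, 179, 142, 170 and 161 with IL-2 and 149, 178, 142 and 126 with FP, again without overlap. Its change after FP was 0.71 ± 0.11 (edgeR adjusted p = 0.000519). Cad, the enzyme of the first 3 pyrimidine steps, changed by 0.96 ± 0.08 with IL-2 and by 0.68 ± 0.08 with FP, both called. Pfas was the ring gene not called after either protein, and Paics was called after IL-2 (0.56) and not after FP (0.38).

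The paralogs of the other steps did not split as Ctps and Ctps2 did. Shmt2, the mitochondrial serine hydroxymethyltransferase (ENSMUSG00000025403, chr10:127517123-127522444), went from 40.4, 40.3, 45.4 and 39.3 CPM with PBS to 68.8, 70.0, 71.3 and 79.1 with IL-2 and 67.7, 59.1, 63.5 and 49.5 with FP. Cytosolic Shmt1 went from 22.6, 21.9, 21.8 and 22.4 CPM to 35.7, 37.2, 34.9 and 39.6 with IL-2 and 32.6, 32.5, 29.9 and 27.8 with FP. Both rose after either protein, by 0.81 and 0.73 on the log2 scale after IL-2 and by 0.54 and 0.47 after FP.

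Of the pair of IMP dehydrogenases, which open the branch to GMP, Impdh2 had 66.0, 65.8, 62.0 and 54.4 CPM with PBS, 88.3, 78.1, 76.0 and 75.6 with IL-2 and 71.7, 77.2, 79.5 and 75.5 with FP. It was called after IL-2 (0.36, edgeR adjusted p = 0.00465) and not after FP (0.29). Impdh1 had 57.6, 58.0, 52.6 and 66.8 CPM with PBS, 70.0, 69.3, 67.2 and 75.0 with IL-2 and 69.2, 67.9, 68.5 and 66.5 with FP, and was called in neither comparison. Of the PRPP synthetases, Prps1 had 32.6, 36.9, 32.6 and 27.8 CPM with PBS and 46.8, 42.0, 41.7 and 36.1 with IL-2, while Prps2 had 73.6, 72.1, 82.0 and 58.7 with PBS and 88.8, 76.7, 93.8 and 69.0 with IL-2. Both overlapped with PBS and neither was called.

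Mthfd2, the mitochondrial methylenetetrahydrofolate dehydrogenase of growing cells, had 34.4, 37.3, 41.6 and 28.7 CPM with PBS, 59.0, 50.3, 52.8 and 55.3 with IL-2 and 45.3, 43.6, 47.3 and 45.7 with FP. All treated libraries were above PBS, and the change was called after IL-2 (0.61 ± 0.10, edgeR adjusted p = 0.00047) and not after FP (0.36, adjusted p = 0.0295). Dck, the kinase that salvages deoxycytidine, went the other way, from 53.1, 54.2, 55.2 and 39.9 CPM to 29.6, 31.5, 34.2 and 25 after IL-2 and 32.3, 37.6, 31.5 and 35.9 after FP. It fell by 0.75 and by 0.56 on the log2 scale (edgeR adjusted p = 0.000383 and 0.00584). The call after FP was lost when any 1 of the FP libraries, or any of the first 3 PBS libraries, was left out, with changes of -0.52 to -0.61. Samhd1, which hydrolyses deoxynucleoside triphosphates, had 1270, 1070, 1140 and 1150 CPM with PBS, 1170, 1270, 1090 and 1220 with IL-2 and 1180, 1240, 1200 and 1190 with FP, and was not called.

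FP and IL-2 were also compared directly at 1.5 h. No member was called, and no gene of the table was (0%). DESeq2 called 0 members, while 12 members had an unadjusted edgeR p below 0.05, all lower with FP, beside 5.83% of all genes in either direction. The smallest adjusted p was 0.624 (Ctps). For Ctps the FP level was lower than the IL-2 level by a log2 difference of -0.37 (95% interval -0.58 to -0.15), for Dctd by -0.49 (-0.81 to -0.16) and for Nme1 by -0.36 (-0.63 to -0.10). In all, 28 of the 32 differences were negative, with a median of -0.18 beside -0.008 over all genes. The intervals are not adjusted for the number of genes tested, and no difference was called.

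Around the 32 genes, of those that supply serine and folate 8 of 22 tested were higher and 1 lower after IL-2, and 5 higher and 0 lower after FP. Their signs were mixed, with 12 of 22 positive after IL-2 and 11 after FP, and the medians were 0.08 in both, beside 14.2% and 6.67% of all genes called. Gcsh, the H protein of the glycine cleavage system, rose by 2.6 ± 0.16 and 1.99 ± 0.16 (edgeR adjusted p = 1.25e-07 and 2.29e-06), Psat1, an enzyme of serine synthesis, by 1.08 and 0.74, and the folate carrier Slc19a1 by 1.09 and 0.77. Of the genes of purine salvage and interconversion, 2 of 20 were higher and 1 lower after either protein, with Ampd1 (AMP deaminase) at -1.71 and -1.25. After IL-2 this is close to the share of all genes called (14.2%). In pyrimidine salvage 1 of 11 was higher after either, the uridine kinase Uck2 (0.80 and 0.57). Among nucleotidases and nucleoside transporters 2 of 11 were higher after IL-2 and 1 after FP, with the transporter Slc29a2 at 1.47 and 1.18.

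Of the named regulators, Myc had 146, 113, 114 and 168 CPM with PBS, 467, 589, 435 and 350 with IL-2 and 402, 536, 496 and 340 with FP, without overlap. It rose by 1.77 ± 0.18 and 1.71 ± 0.18 (edgeR adjusted p = 9.82e-06 and 2.72e-05). Atf4, a factor that drives serine and one-carbon genes, rose by 0.59 after IL-2 and had a change of 0.41 that was not called after FP (adjusted p = 0.0106). E2f1 was not called (0.45 and 0.11), and E2f2 fell by 1.46 and 1.14. Treg markers summed to 5970 to 6370 CPM with IL-2 and 5600 to 6060 with FP, above the PBS libraries. Singly they went both ways: after either protein 6 of the 10 were positive and 4 negative, with 2 called higher. Their part in these results was not tested.

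**Figure D2:**
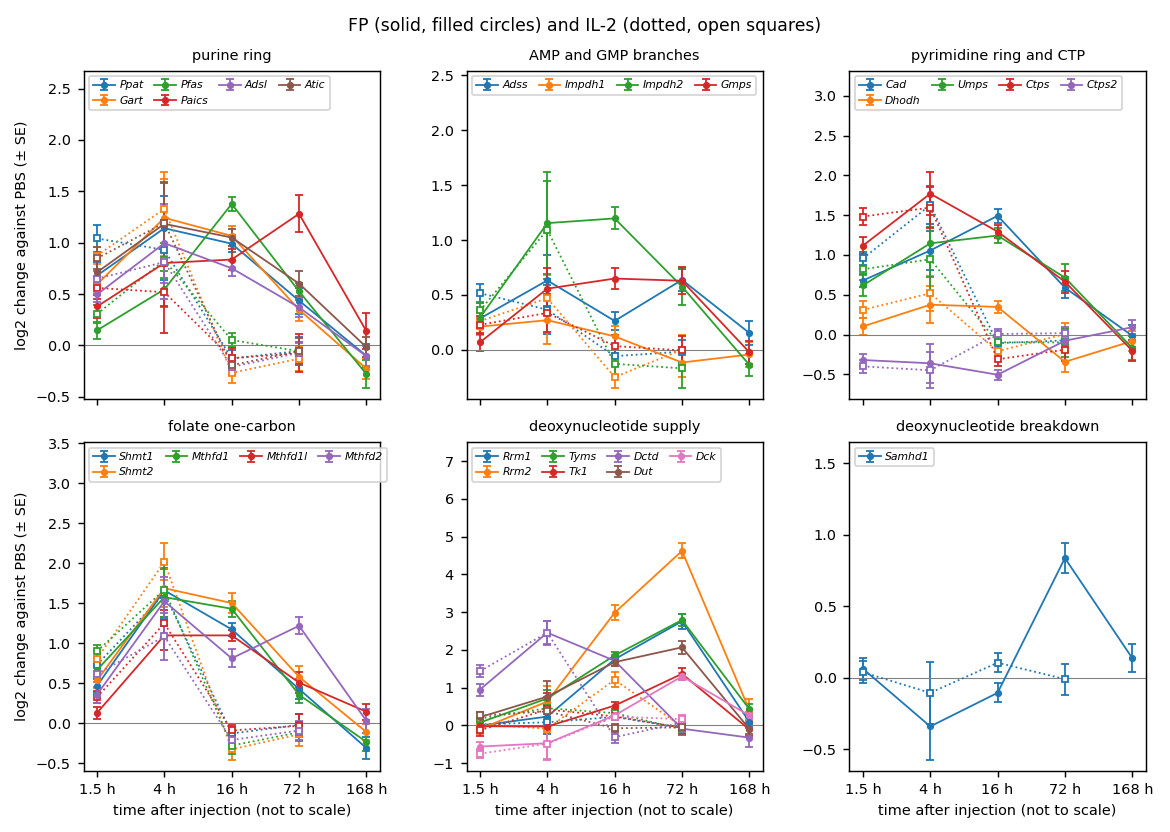
Log2 change against PBS of the same time (y axis, ± SE) at 1.5 to 168 h (x axis, not to scale) in 6 panels by role, with FP as filled circles on solid lines and IL-2 as open squares on dotted lines. After IL-2 Ctps (1.48) and Dctd (1.44) stand above 1 at 1.5 h and below 0 at 16 h, while after FP Rrm2 climbs from -0.09 at 1.5 h to 4.62 at 72 h.

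At 4 h the median change was larger and the calls were fewer. Of the 32, 4 were called higher after IL-2 and 4 after FP, and 0 lower in both, beside 0.652% of all genes after IL-2 (0.567% higher) and 0.913% after FP (0.72% higher). The median change of the 32 was 0.82 after IL-2 and 0.90 after FP, beside 0.06 and 0.05 over all genes, and 17 and 21 members were higher in every treated library than in every PBS library, as 8.61% and 10.9% of all genes were. The spread between replicates was wide, with a common biological variation of 38.4% against 16.3% at 1.5 h. Same-numbered libraries deviated together in this table, and with the replicate number as a block 14 members were called higher after IL-2 and 15 after FP, beside 2.36% and 3.93% of all genes called higher in the same fit. Ctps, Ppat, Atic, Mthfd2, Impdh2, Shmt1, Mthfd1, Gart, Nme1 and Nme2 were among those called in both. The second FP library deviated more with the first PBS library (correlation 0.614) than with the second (0.18), so the block may mispair it. With the sequencing lane in the fit, 1 was called after IL-2. The IL-2 and PBS libraries all shared lane 2, so that count says nothing of a lane difference between them. For FP that fit cannot decide, as only the first FP library shared lane 2 with the PBS libraries. Leaving out 1 library left 0 to 3 calls after IL-2 (0 without the second IL-2 library or any PBS library) and 0 to 1 after FP (1 without the fourth FP library). The share of all genes called in the lane and leave-out fits is not given here.

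Dctd stood out by size, from 6.76, 4.24 and 6.86 CPM with PBS to 49.8, 25.5, 29.2 and 26.3 with IL-2 and 29.8, 39.8 and 28.4 with FP. The groups lay far apart, with the first IL-2 library above the rest of its group, and Dctd rose by 2.46 after either protein (SE 0.31 and 0.32, edgeR adjusted p = 0.00418 and 0.00407). Shmt2 went from 61.2, 52.0 and 37.8 CPM to 266, 208, 181 and 159 with IL-2 and 161, 180 and 145 with FP, a rise of 2.02 ± 0.23 and 1.69 ± 0.24. Mthfd1l, the mitochondrial formyl-tetrahydrofolate synthetase, had 79.5, 66.9 and 56.2 CPM with PBS, 186, 169, 142 and 144 with IL-2 and 137, 157 and 139 with FP, and rose by 1.25 and 1.10. In both genes every treated library lay above every PBS library.

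Cad was called after IL-2 only: it had 107, 81.1 and 65.9 CPM with PBS, 326, 283, 231 and 204 with IL-2 and 182, 141 and 205 with FP, with no overlap between PBS and either group. Its changes were 1.63 ± 0.24 and 1.06 ± 0.24 (edgeR adjusted p = 0.0071 and 0.0424). Ctps was called after FP only, with 27.6, 17.6 and 18.7 CPM with PBS, 88.8, 59.9, 59.1 and 49.7 with IL-2 and 67.8, 91.8 and 58.4 with FP. Its changes were 1.60 (not called, adjusted p = 0.0124) and 1.77 ± 0.27 (adjusted p = 0.00848). The direct comparison of FP with IL-2 called 0 members and 0% of genes by edgeR and 0 members by DESeq2, with 1 member at an unadjusted p below 0.05 (Cad, -0.57) beside 2.73% of all genes, so a difference between the proteins was not called for either gene. Rrm2 had 8.23, 5.36 and 4.81 CPM with PBS, 8.87, 4.32, 4.89 and 5.00 with IL-2 and 12.0, 11.4 and 5.17 with FP, with all groups overlapping. Among the wider lists only Gcsh was called, after FP (3.67 ± 0.56, edgeR adjusted p = 0.00793). Myc (0.74 and 1.12), Atf4 (0.53 and 0.94) and E2f1 (0.86 and 1.21) were not called after IL-2 or FP.

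**Figure D3:**
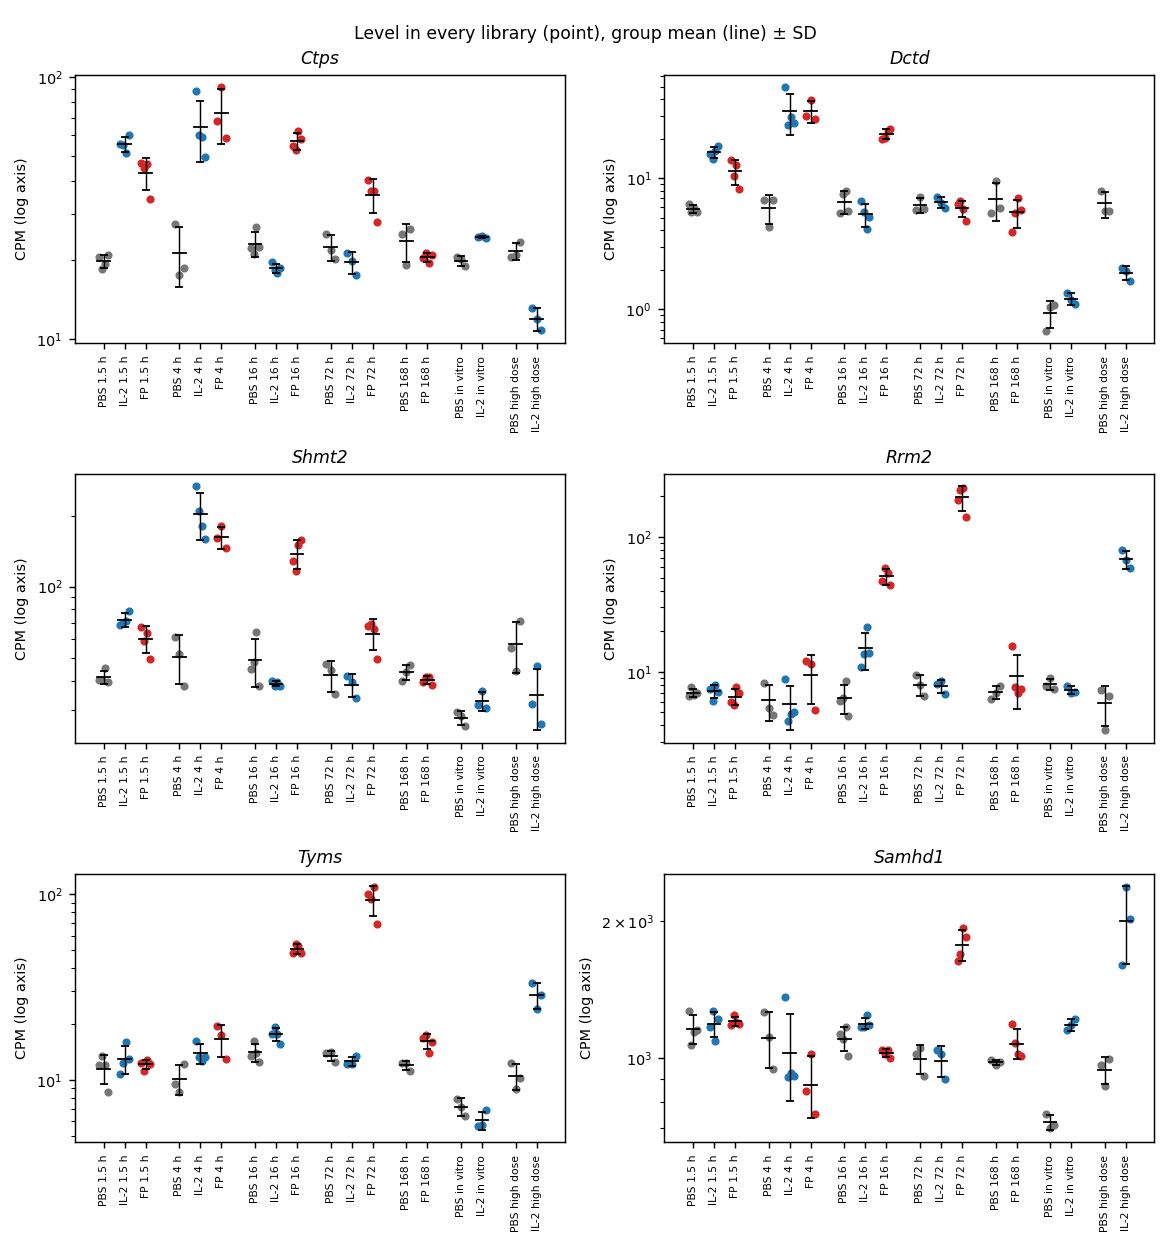
CPM (log axis) of Ctps, Dctd, Shmt2, Rrm2, Tyms and Samhd1 in every library of all tables but the restimulation, by group, with the mean ± SD of each group as a bar over the points. The IL-2 libraries stand above PBS at 1.5 and 4 h for Ctps, Dctd and Shmt2 and beside PBS at 72 h, and the 4 FP libraries at 72 h hold 142 to 233 CPM of Rrm2 against 6.6 to 9.42 with PBS.

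At 16 h IL-2 and FP had parted. After IL-2, 1 of the 32 genes was called higher and 0 lower (0.35% of all genes, 0.344% higher), while after FP 27 were higher and 1 lower (28.8% of all genes, 14.4% higher). The direct comparison of FP with IL-2 called 28 members higher and 1 lower (31.8% of all genes, 16.8% higher). The median change of the 32 was -0.13 after IL-2 and 1.08 after FP, beside -0.01 and -0.05 over all genes.

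After FP every purine ring gene (6 of 6), one-carbon gene (5 of 5), PRPP synthetase (2 of 2) and diphosphate kinase (2 of 2) was called higher, with 4 of 5 pyrimidine genes, 2 of 4 genes of the AMP and GMP branches and 6 of 7 genes of deoxynucleotide supply. The ring and one-carbon changes ran from 0.75 (Adsl) to 1.50 (Shmt2). Adss, Impdh1, Dck and Samhd1 were not called, and Ctps2 fell.

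The 4 largest changes lay in deoxynucleotide supply. Rrm2 (ENSMUSG00000020649, chr12:24708241-24714146) had 6.02, 6.43, 8.52 and 4.71 CPM with PBS, 10.8, 13.5, 21.5 and 13.7 with IL-2 and 46.9, 59.0, 53.8 and 44.1 with FP. The 3 groups did not overlap, with IL-2 between the others. Rrm2 rose by 2.98 ± 0.20 after FP and was the single member called after IL-2, by 1.21 ± 0.20 (edgeR adjusted p = 5.05e-09 and 0.00581). The IL-2 call was lost when IL-2 library 2, 3 or 4 or PBS library 1, 2 or 4 was left out.

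Rrm1 (ENSMUSG00000030978, chr7:102441695-102469771), the large subunit of the same reductase, had 35.1, 37.2, 44.3 and 39.9 CPM with PBS, 41.8, 46.0, 50.4 and 44.7 with IL-2 and 127, 138, 135 and 128 with FP. Tyms (ENSMUSG00000025747, chr5:30058202-30073617), thymidylate synthase, had 13.5, 16.2, 14 and 12.5 CPM with PBS, 17.7, 19.3, 17.7 and 15.7 with IL-2 and 48.3, 54.0, 52.7 and 48.3 with FP. In both genes IL-2 overlapped with PBS and FP stood apart. They rose by 1.75 ± 0.08 and 1.85 ± 0.09 after FP (edgeR adjusted p = 7.31e-11 and 1.92e-10), and after IL-2 the changes of 0.225 and 0.325 were not called. Dctd had 5.38, 7.54, 7.92 and 5.60 CPM with PBS, 6.64, 5.56, 4.10 and 5.02 with IL-2 and 20.0, 20.3, 22.7 and 23.9 with FP, and rose by 1.71 ± 0.15 after FP.

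FP exceeded IL-2 most in Dctd (2.02 ± 0.15), Nme1 (1.87 ± 0.12), Shmt2 (1.83 ± 0.13) and Rrm2 (1.775 ± 0.179). Nme1 had 20.2, 23.2, 29.5 and 28.8 CPM with PBS, 19, 20.2, 17.4 and 17.7 with IL-2 and 62.1, 60.7, 73.5 and 74.9 with FP. Shmt2 had 44.7, 47.7, 64.3 and 38.0 with PBS, 40.0, 38.0, 39.3 and 38.0 with IL-2 and 128, 116, 150 and 157 with FP. The FP libraries lay above all others in both genes, and IL-2 lay within or below the range of PBS.

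The CTP synthases again went opposite ways after FP. Ctps had 22.2, 21.2, 26.8 and 22.4 CPM with PBS, 19.7, 18.4, 17.9 and 18.7 with IL-2 and 54.5, 52.6, 62.2 and 57.9 with FP, a rise of 1.29 ± 0.09 after FP. Ctps2 had 108, 116, 115 and 123 CPM with PBS, 114, 117, 119 and 115 with IL-2 and 82.2, 84.7, 77 and 81.9 with FP, and fell by 0.51 (edgeR adjusted p = 4.9e-06). IL-2 overlapped with PBS for Ctps2 and lay below it for Ctps (-0.31, adjusted p = 0.161).

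Impdh2 had 60.9, 65.5, 85.1 and 56.5 CPM with PBS, 61.5, 63.6, 59.0 and 61.3 with IL-2 and 156, 140, 158 and 161 with FP, and rose by 1.20 ± 0.10 after FP. Impdh1 had 65.0, 73.9, 88.0 and 60.7 CPM with PBS, 66.6, 60.6, 59.4 and 55.4 with IL-2 and 84.1, 72.7, 77.4 and 78.9 with FP, overlapped between groups and was not called against PBS (0.12, edgeR adjusted p = 0.35). Shmt1 had 20.3, 25.2, 24.2 and 22.4 CPM with PBS and 50.1, 52.0, 54.3 and 51.2 with FP, a rise of 1.17 beside the 1.50 of Shmt2. Prps1 had 30.2, 25.9, 33.8 and 32.6 CPM with PBS and 37.8, 40.0, 42.9 and 41.1 with FP, and Prps2 65.4, 61.4, 80.3 and 78.6 with PBS and 94.3, 105, 110 and 101 with FP; both rose, by 0.40 and 0.52. Mthfd2 had 36.3, 44.0, 58.5 and 38.2 CPM with PBS, 36.4, 39.7, 40.2 and 36.8 with IL-2 and 75.1, 77.1, 79.4 and 78.9 with FP, and rose by 0.81 ± 0.11. Samhd1 had 1130, 1100, 1170 and 1010 CPM with PBS, 1170, 1170, 1240 and 1180 with IL-2 and 1040, 1020, 1040 and 1000 with FP, with no call against PBS.

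**Figure D4:**
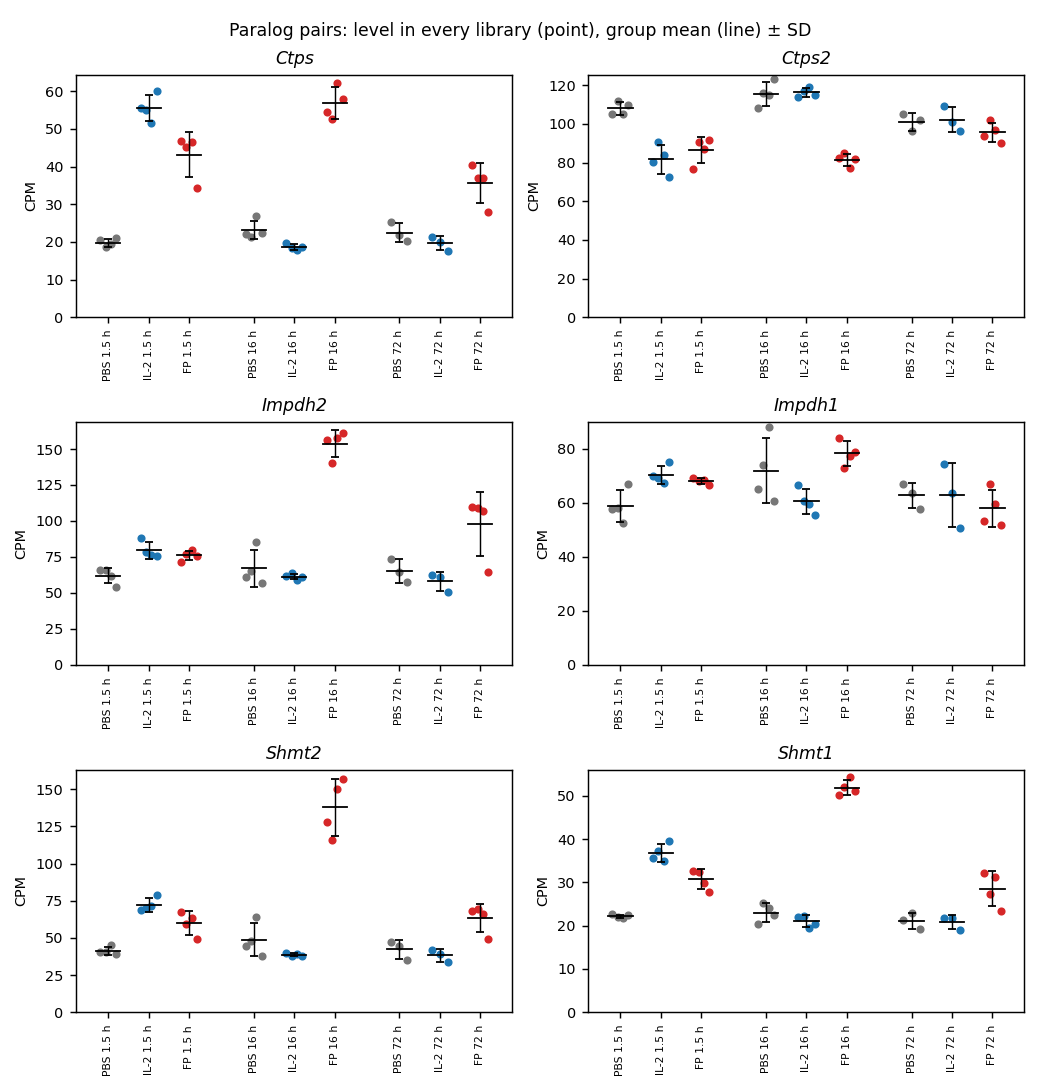
CPM (linear axis from 0) of Ctps and Ctps2, Impdh2 and Impdh1, and Shmt2 and Shmt1 in each library at 1.5, 16 and 72 h, with the mean ± SD of each group. Ctps is higher and Ctps2 lower after FP at 16 h, Impdh2 is higher while Impdh1 overlaps with PBS, and both Shmt genes are higher.

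Whether the effects differed between 1.5 and 16 h was tested with each effect set against the PBS of its own table. Each time has a table of its own. Here and in the later comparisons of times, time and table therefore cannot be told apart beyond that PBS correction. The FP effect was larger at 16 h in 13 members and smaller in 0 (4.98% of all genes), with Rrm2 at 3.10 ± 0.26, Tyms at 1.80 ± 0.17, Rrm1 at 1.78 ± 0.12 and Dut at 1.48 ± 0.14 (edgeR adjusted p = 3.35e-09, 4.37e-08, 4.69e-11 and 3.33e-08). These 13 included 5 of 7 genes of deoxynucleotide supply, 4 of 5 one-carbon genes and 1 of 6 purine ring genes (Pfas). The IL-2 effect, taken with its sign, was smaller at 16 h in 20 members and larger in 3 (12.8% of all genes). The 3 were Rrm2 (1.18 ± 0.26), Dck and Ctps2. For Dck and Ctps2 this was a fall that had faded: both were called lower at 1.5 h and not at 16 h. The difference was -1.79 ± 0.13 in Ctps, -1.74 ± 0.23 in Dctd and -1.615 ± 0.180 in Nme1 (edgeR adjusted p = 7.98e-10, 3.83e-06 and 3.93e-07). The effect was also smaller in 5 of 6 purine ring and 5 of 5 one-carbon genes.

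In the wider lists edgeR called 0 genes of serine and folate supply, salvage, nucleotidases and transport after IL-2 at 16 h. After FP, 9 of 23 genes of serine and folate supply were higher and 3 lower, with Gcsh at 2.96 ± 0.12 and Psat1 at 1.71 ± 0.12 (edgeR adjusted p = 2.24e-11 and 2.06e-08). Salvage moved both ways: 7 of 20 purine salvage genes were higher and 4 lower (Ada 0.88, Ampd1 -1.82), and of 11 pyrimidine salvage genes 3 were higher and 3 lower (Dctpp1 1.63, Uck2 0.88, Tk2 -0.76). Among nucleotidases and transporters 2 of 11 were higher and 1 lower, close to the 28.8% of all genes called.

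Myc had 119, 116, 139 and 76.8 CPM with PBS, 94.7, 86.7, 83.5 and 81.1 with IL-2 and 199, 194, 208 and 206 with FP, and rose by 0.84 after FP (-0.38 after IL-2, not called). E2f1 had 2.63, 2.27, 2.94 and 0.827 CPM with PBS, 4.40, 5.38, 4.82 and 4.60 with IL-2 and 34.7, 34.7, 34.0 and 32.7 with FP. The 3 groups did not overlap, and E2f1 rose by 3.96 after FP (edgeR adjusted p = 1.75e-10) and had a change of 1.14 that was not called after IL-2 (adjusted p = 0.0188). E2f7 and E2f8, called after IL-2 (1.91 and 1.87), rose by 3.84 and 3.74 after FP. Atf4 was not called after FP (0.07). Of the markers of other cells at 16 h, the 12 B cell markers summed to 52.2 to 72.1 CPM with PBS and 37.6 to 47.5 with FP. The 11 myeloid markers summed to 569 to 924 and 398 to 788, with overlap. Singly, edgeR called 2 of the 12 and 1 of the 11 lower and 0 higher, beside 28.8% of all genes called. The part of these markers in the results at 16 h was not tested.

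At 72 h IL-2 had left no call. None of the 32 genes and 0% of all genes were called by edgeR, 0 members (0.44% of all genes) had an unadjusted p below 0.05 and DESeq2 called 0. The 95% interval of the change was -0.45 to 0.40 for Rrm2, -0.50 to 0.12 for Ctps and -0.52 to 0.35 for Nme1. Same-numbered libraries deviated together here too, and with the replicate block 0 members were called.

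After FP, 21 of the 32 were higher and 0 lower at 72 h (30.4% of all genes, 17.3% higher). Against IL-2, 25 were higher and 0 lower (30.8% of all genes, 17.9% higher). The balance between roles had shifted: 6 of 7 genes of deoxynucleotide supply were higher with a median change of 2.07, while the purine ring (4 of 6 called, median 0.48) and one-carbon genes (3 of 5, median 0.51) had smaller medians than at 16 h (1.02 and 1.17), without every member being smaller. Scaling by library totals alone moved the median of all genes from -0.05 to -0.36 and that of the members from 0.60 to 0.28. It gave 12 members higher and 3 lower, the 3 being Impdh1 (-0.43), Dhodh (-0.64) and Ctps2 (-0.39). Against IL-2 it gave 16 higher and the same 3 lower. The share of all genes called with this scaling is not given here, so these counts cannot be set against it. The count after FP was 28 without the fourth FP library and 12 without the third PBS library. For those fits the share of all genes called is not given here either.

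Rrm2 had 9.42, 7.96 and 6.60 CPM with PBS, 8.17, 8.50 and 6.86 with IL-2 and 188, 224, 233 and 142 with FP. Tyms had 13.9, 14.1 and 12.5 with PBS, 12.2, 12.2 and 13.4 with IL-2 and 101, 95, 110 and 69.1 with FP. Rrm1 had 42.0, 37.7 and 33.4 with PBS, 37.9, 35.4 and 34.6 with IL-2 and 296, 287, 277 and 161 with FP. In all 3 genes FP stood far above the others, the fourth FP library was the lowest of its group, and IL-2 overlapped with PBS. The rises after FP were 4.62 ± 0.20 for Rrm2, 2.79 ± 0.15 for Tyms and 2.76 ± 0.19 for Rrm1 (edgeR adjusted p = 2.88e-08, 7.09e-08 and 5.74e-07).

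Dut, which hydrolyses dUTP and so keeps uracil out of DNA, had 20.2, 19.3 and 17.7 CPM with PBS, 20.1, 19.5 and 15.6 with IL-2 and 95.1, 89.1, 81.9 and 54.0 with FP, a rise of 2.07 ± 0.18 (edgeR adjusted p = 3.35e-06). Tk1, the thymidine kinase of S phase, had 20.4, 29.0 and 29.4 CPM with PBS and 62.8, 65.8, 84.5 and 58.0 with FP, and rose by 1.37 ± 0.16. Dck, lower than PBS at 1.5 h, had 49.2, 43.6 and 42.2 CPM with PBS and 106, 122, 117 and 97.5 with FP and rose by 1.30 ± 0.10. Dctd was the member of its role that did not follow: it had 5.70, 7.13 and 5.84 CPM with PBS, 7.24, 6.52 and 5.97 with IL-2 and 6.38, 6.64, 5.80 and 4.71 with FP, with overlapping groups and a change of -0.09.

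Samhd1 (ENSMUSG00000027639, chr2:157097533-157135265), the 1 member that breaks deoxynucleotides down, rose together with the genes that make them. It had 1020, 1050 and 910 CPM with PBS, 1040, 1020 and 897 with IL-2 and 1630, 1690, 1930 and 1840 with FP, with FP apart from both. The rise was 0.84 ± 0.10 (edgeR adjusted p = 5.06e-05).

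Among the earlier steps, Paics and Mthfd2 had the largest changes at 72 h. Paics, which carries out the carboxylation and the next step of the purine ring, had 72.9, 65.4 and 56.3 CPM with PBS, 66.1, 61.8 and 56.6 with IL-2 and 200, 184, 137 and 110 with FP, a rise of 1.28 ± 0.18. Mthfd2 had 40.6, 33.5 and 34.7 CPM with PBS, 36.1, 33.7 and 32.3 with IL-2 and 82.1, 95.3, 87.3 and 72.4 with FP, a rise of 1.22 ± 0.11. FP lay above the others in both. Of the diphosphate kinases, Nme1 had 23.2, 20.4 and 17.2 CPM with PBS and 61.2, 60.4, 44.1 and 35.8 with FP, and Nme1 and Nme2 rose by 1.31 and 1.18.

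Ctps had 25.2, 21.8 and 20.2 CPM with PBS and 40.3, 36.9, 36.9 and 27.9 with FP (0.66, called), and Ctps2 105, 96.1 and 102 with PBS and 93.6, 102, 96.9 and 90.3 with FP (-0.08, not called). Shmt2 had 47.1, 44.5 and 35.1 CPM with PBS and 68.4, 69.2, 65.9 and 49.2 with FP (0.58, called), and Shmt1 21.4, 22.9 and 19.2 with PBS and 32.2, 27.4, 31.2 and 23.4 with FP (0.43, not called). Impdh2 had 73.5, 64.7 and 57.4 CPM with PBS and 110, 109, 107 and 64.2 with FP, so that the fourth FP library lay within PBS, and it was not called (0.58, edgeR adjusted p = 0.0158). Neither Impdh1 (-0.12) nor the PRPP synthetases (0.45 and 0.32) were called.

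**Figure D5:**
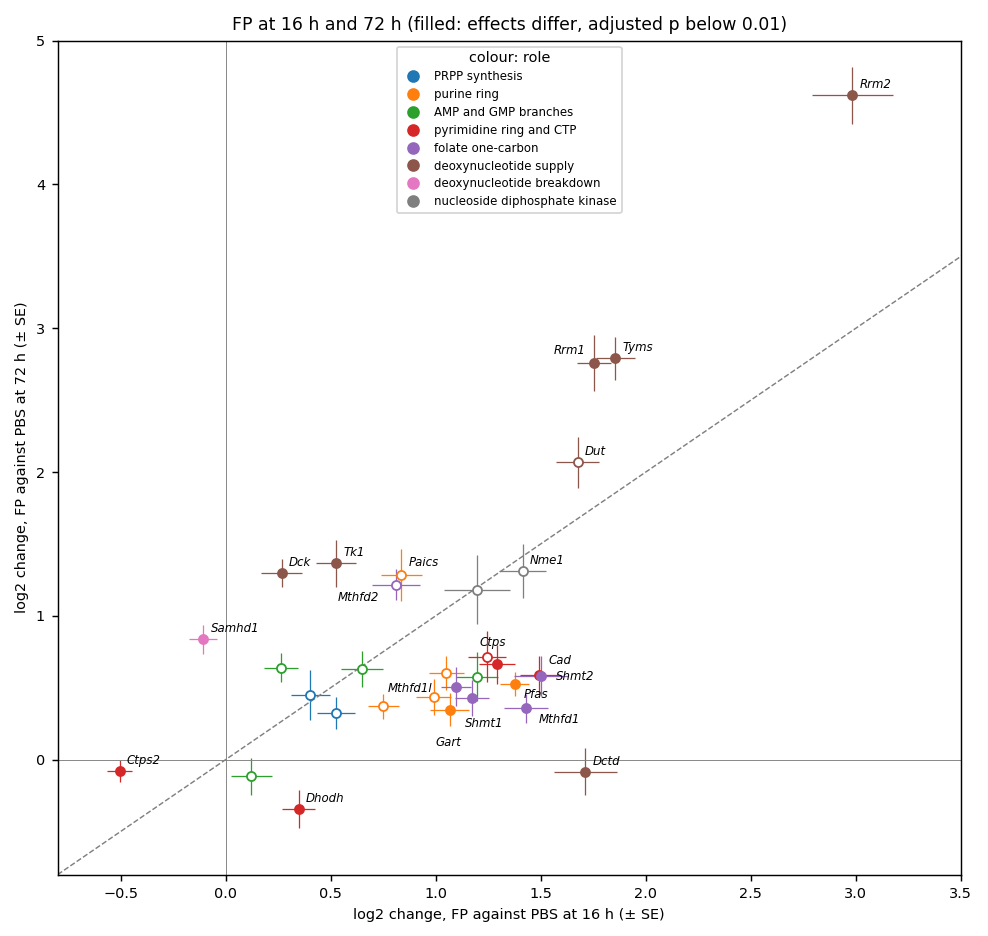
Log2 change of FP against PBS at 16 h (x axis) and 72 h (y axis) for the 32 genes, each ± SE, coloured by role and filled where the effects differ at an adjusted p below 0.01, with a dashed line of equality. Rrm2, Rrm1, Tyms and Dck lie above the line, and Dctd, Shmt2, Cad and Mthfd1 below it.

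The shift was tested as the FP effect at 72 h minus that at 16 h, which was larger at 72 h in 7 members and smaller in 10 (15.6% of all genes). By role, 5 of 7 genes of deoxynucleotide supply were larger and 1 (Dctd) smaller, and 4 of 5 one-carbon genes were smaller and 0 larger. Of the pyrimidine genes 3 of 5 were smaller, and of the ring genes 2 of 6 (Pfas, Gart). Ctps2 counted as larger by its sign alone: it was called lower at 16 h and not at 72 h, so its fall had faded. The difference was -1.81 ± 0.22 for Dctd, 1.63 ± 0.29 for Rrm2, -1.08 ± 0.15 for Mthfd1 and 1.03 ± 0.14 for Dck (edgeR adjusted p = 4.97e-06, 0.000239, 1.94e-05 and 2.02e-05), and 0.94 for Samhd1. Paics (0.44), Mthfd2 (0.40), Nme1 (-0.10) and Dut (0.39) were not called. Scaled by library totals alone, 5 members were larger and 17 smaller, while the median difference of all genes moved from 0.015 to -0.26. The share of all genes called with that scaling is not given here, so these counts cannot be set against it.

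Markers of myeloid cells moved with FP at this time. Of the 14, 13 had values at 72 h and none was at 0 in every library of a group, and they summed to 480 to 1170 CPM with PBS, at most 878 with IL-2 and 38 to 116 with FP, while Treg markers summed to 3730 to 4400, 3910 to 4170 and 6100 to 6950. Their part in the results at 72 h was not tested.

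In the wider lists at 72 h, beside 30.4% of all genes called, 8 of 23 genes of serine and folate supply were higher and 3 lower after FP, among them Ahcy, which clears S-adenosylhomocysteine (1.72), and Psat1 (1.49). Purine salvage had 8 of 20 higher and 3 lower, with Gda at 2.44 and Hprt, which recovers hypoxanthine and guanine, at 1.42. In pyrimidine salvage 4 of 11 were higher and 2 lower (Dctpp1 2.44, Cmpk2 1.81, Tk2 -0.66), and among nucleotidases and transporters 3 of 11 were higher and 2 lower. Slc29a2, higher at 1.5 h, was among the lower ones (-1.08). E2f1 stayed high, with 2.21, 2.84 and 2.2 CPM with PBS and 25.2, 24.0, 27.7 and 18.1 with FP (3.286, edgeR adjusted p = 1.84e-07), and E2f7 and E2f8 rose by 5.12 and 5.44. Myc (0.28) and Atf4 (0.05) were not called.

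By 168 h no member was called after FP, beside 1.21% of all genes. DESeq2 called 0 members, and 2 higher and 1 lower had an unadjusted edgeR p below 0.05 (6.98% and 7.85% of all genes). Tyms, with the smallest adjusted p (0.151), had 12.4, 12.3 and 11.2 CPM with PBS and 16.9, 17.5, 14 and 16.1 with FP, without overlap (0.43, 95% interval 0.14 to 0.72). Rrm2 had 6.26, 6.98 and 7.85 with PBS and 15.4, 7.64, 6.96 and 7.39 with FP, so that 1 FP library stood above an otherwise shared range. The FP effect was smaller at 168 h than at 72 h in 11 members and larger in 0 (8.6% of all genes), by -4.21 ± 0.35 in Rrm2, -2.66 ± 0.23 in Rrm1, -2.36 ± 0.19 in Tyms and -2.155 ± 0.233 in Dut (edgeR adjusted p = 3.06e-07, 5.31e-07, 2.16e-07 and 4.79e-06). Tk1, Dck, Mthfd2, Paics, Ctps, Pfas and Samhd1 were the other 7. Myeloid markers summed to 336 to 459 CPM with PBS and 37.4 to 57.1 with FP at 168 h, and their part was not tested. Of the 4 wider lists edgeR called 0 genes, and Myc (-0.23), Atf4 (0.16) and E2f1 (-0.13) were not called.

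Cells exposed to IL-2 in vitro for 1.5 h gave another pattern than cells from injected mice. Of the 32 genes 6 were higher and 4 lower, beside 13.9% of all genes (7.4% higher), and the median change was 0.03. Myc rose, from 140, 147 and 139 CPM to 358, 352 and 335 (1.30 ± 0.04, edgeR adjusted p = 6.58e-20). Of the 6 ring genes only Atic was called (0.22), and of the 5 one-carbon genes only Shmt1 (0.31).

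Samhd1 had 753, 700 and 713 CPM with PBS and 1150, 1180 and 1220 with IL-2 and rose by 0.71 ± 0.04 (edgeR adjusted p = 2.13e-14). Prps1 had 61.6, 61.3 and 63.0 against 92.5, 99.5 and 86.7, a rise of 0.58 ± 0.05, while Prps2 had 32.4, 36.3 and 37.3 against 36.3, 35.6 and 35.7 and was not called. Adss, which opens the branch to AMP, had 213, 209 and 216 against 297, 307 and 296, a rise of 0.50 ± 0.04. The groups did not overlap for the 3 genes that rose.

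Ctps and Ctps2 moved apart here too. Ctps had 20.6, 20.2 and 19 CPM with PBS and 24.6, 24.7 and 24.4 with IL-2 (0.30, edgeR adjusted p = 0.0011), and Ctps2 136, 129 and 130 with PBS and 101, 98.2 and 108 with IL-2 (-0.36, adjusted p = 6.89e-08). Rrm1 (-0.23), Tk1 (-0.32) and Dck (-0.21) were the other 3 that fell. Mthfd2 had 33.3, 33.0 and 33.8 against 34.4, 35.0 and 33.3 and overlapped. Dctd was low, with 0.685, 1.04 and 1.08 against 1.34, 1.18 and 1.09, and Nme1 had 12.5, 9.56 and 11.4 against 11.6, 11.5 and 11.8.

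The IL-2 effect in vitro was smaller than in mice at 1.5 h in 10 members and larger in 1 (4.96% of all genes). The differences were -1.185 ± 0.134 for Ctps, -1.11 ± 0.19 for Nme1, -1.03 ± 0.17 for Ppat and -1.02 ± 0.18 for Umps (edgeR adjusted p = 1.35e-05, 0.000642, 0.000611 and 0.000829). Samhd1 was the gene with the larger effect (0.67 ± 0.10). The tables differ in more than the route of IL-2, so route, culture and table cannot be told apart. In the wider lists, beside 13.9% of all genes called, 2 of 21 genes of serine and folate supply were higher (Gcsh 0.81, Mtfmt 0.37) and 1 lower (Mthfs -0.40), and 1 of 21 purine salvage genes was higher and 2 lower. By edgeR 0 pyrimidine salvage genes were called, and 2 of 11 nucleotidases and transporters were higher, with the ectonucleotidase Entpd1 (CD39) at 0.94. Atf4 (0.12) and E2f1 (0.34) were not called.

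In the high-dose table the 3 IL-2 and 3 PBS libraries gave large differences and no call. By edgeR 0 members and 0% of genes were called, and 7 members were higher and 14 lower at an unadjusted p below 0.05 (6.85% and 9.61% of all genes). DESeq2 called 6 members higher and 2 lower (2.46% and 0.834% of all genes). The common biological variation was 40.7%, the widest of the 8 tables.

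Rrm2 had 7.32, 3.67 and 6.65 CPM with PBS and 79.9, 67.4 and 58.6 with IL-2, a log2 difference of 3.54 ± 0.31 with an edgeR adjusted p of 0.0109. Tyms had 12.3, 8.94 and 10.2 against 33.5, 24.2 and 28.8 (1.46, adjusted p = 0.0237), Rrm1 39.6, 35.8 and 38.6 against 108, 88.1 and 79.8, and Samhd1 964, 869 and 992 against 1600, 2380 and 2020. Dctd had 8.05, 5.62 and 5.59 against 2.07, 1.97 and 1.63 (-1.76, adjusted p = 0.0354), Mthfd1 50.5, 48.2 and 53.0 against 23.2, 23.5 and 17.6, and Ctps 20.5, 20.9 and 23.5 against 13.2, 11.9 and 10.8. None of these 7 genes overlapped between groups, with the S-phase genes and Samhd1 above PBS and the others below. Among all members 9 were higher and 13 lower without overlap, and Paics, Adss and Ctps2 were also higher. The share of all genes without overlap was not counted in this table. These counts therefore cannot be set against it or read as a result about the members. The median difference was 1.20 over deoxynucleotide supply, -0.52 over the ring and -0.56 over the one-carbon genes, beside -0.035 over all genes. Myc had 118, 98.7 and 133 CPM with PBS and 51.8, 68.9 and 42.4 with IL-2 (-1.10), E2f1 differed by 1.74 and Atf4 by -0.25, none of them called, and edgeR called 0 genes of the 4 wider lists. Myeloid markers (11 of 14 with values) summed to 119 to 132 CPM with PBS and 62.6 to 95 with IL-2, and their part was not tested.

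In the restimulation table no member was called in any of 3 comparisons: single FP against PBS (0.0111% of all genes), repeated FP against PBS (0.629%) and repeated against single FP (0.585%). DESeq2 called 0 in each, and at an unadjusted edgeR p below 0.05 there were 1 higher and 1 lower (2.9% and 6.06% of all genes), 5 higher and 2 lower (10.7% and 11%), and 2 higher and 0 lower (19.7% in either direction). Ctps had 24.8, 19.1 and 20.7 CPM after PBS, 16.4, 29.9 and 30.3 after the single FP and 22.6, 26.4, 25.6 and 25.3 after the repeated FP, with overlapping groups. The first single-FP library stood apart in Myc as well, with 127 CPM against 377 and 356 in the other two, beside 116, 81.0 and 113 after PBS and 285, 379, 288 and 301 after the repeated FP. Rrm2 had 16.5, 13.1 and 26.1 CPM after PBS, 12, 9.78 and 9.48 after the single FP and 12.2, 13.4, 11.0 and 14.7 after the repeated FP (-0.83 and -0.53, not called). Mthfd2 had 43.4, 38.0 and 46.9, then 47.5, 40.7 and 43.2, then 52.4, 66.0, 46.0 and 59.2 in the same order (0.39 for repeated FP, adjusted p = 0.146 by edgeR). Samhd1 had 1040, 999 and 1170 after PBS, 1330, 1350 and 1410 after the single FP and 1200 to 1330 after the repeated FP. In this gene both FP groups lay above PBS, without a call. Of the wider lists, 0 genes were called after the single FP by edgeR, Entpd1 was higher (0.66) and E2f7 lower (-1.44) after the repeated FP, and Gldc, the glycine decarboxylase, was higher after the repeated than after the single FP (3.23). Myc (1.47 and 1.60), Atf4 (0.11 and 0.455) and E2f1 (-0.46 and -0.66) were not called in either FP group. Myeloid markers summed to 117 to 211 CPM after PBS, 211 to 231 after the single and 48.4 to 114 after the repeated FP, and their part was not tested.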

How the data were processed

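RNA of splenic Tregs (25 ng per library, ribosomal RNA removed) was sequenced on a NextSeq instrument, per the labels' protocols. The authors deposited 8 tables of raw counts per gene, made with STAR 2.5.0 and featureCounts 1.5.0 on GRCm38, per the submitters' processing notes. The strandedness of the counting is not given in the sources used here. The tables hold genes over 0.5 CPM in several columns. Of 91 samples, 2 at 4 h whose labels contradict each other were left out, and repeat runs of a library were summed. Each table was filtered, scaled by TMM and fitted on its own with edgeR 4.0.16 (quasi-likelihood, 1 mean per group, all its groups), with Benjamini-Hochberg adjustment over all genes. CPM values use the TMM-scaled totals. Effects of 2 tables were compared in joint fits, each against its own PBS. IL-2 and FP of a table share their PBS libraries. The code was tested on simulated data. DESeq2 1.42.0 was an alternative.

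The members, the wider gene lists and the tests were chosen with earlier results of these data known. Per-library values are given for the 4 largest called members with a mean of 5 CPM or more per comparison, for paralog pairs, and for Mthfd2 and Samhd1. From each wider list, up to 3 called genes with the smallest p are named, with Myc, Atf4 and E2f1. Some genes of these lists are not reported here by name. Others were named by role, or after their values were seen. Same-numbered libraries deviated together, with every correlation above 0.1, for IL-2 and PBS at 4 h (0.375 to 0.798), FP and PBS at 4 h (0.18 to 0.821) and IL-2 and PBS at 72 h (0.291 to 0.423). The labels say nothing of what a number marks. Column names at 4 h carry further tags of unstated meaning, which do not always follow the numbers. The second FP library shares its tag with the first PBS library, and correlated with it at 0.614 against 0.18 with the second PBS library. A block by number may therefore pair some libraries wrongly.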

Additional observations from a re-analysis of the deposited data

Results flagged for a closer look

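For 21 members, 210 combinations of a gene and a group of 4 libraries were checked, and 18 held a library that stood apart by Dixon's test, which chance gives in about 1 in 20. At 4 h the first IL-2 library was above the other 3 in Impdh2 (299.0 CPM, others 92.7 to 127), Nme1 (150.0, others 45.5 to 59.7), Dctd (49.8), Dut (51.8, others 19.3 to 22.6), Rrm2 (8.87) and Samhd1 (1360). At 72 h the fourth FP library was the lowest in Rrm1 (161), Impdh2 (64.2), Shmt2 (49.2) and Mthfd1l (70.0, others at 101). At 168 h the first FP library was the highest in Rrm2 (15.4) and Dut (26.7). The other 6 were the fourth FP library at 1.5 h in Ctps (34.2), the third FP library and the third IL-2 library at 1.5 h in Dut (23.6 and 22.8), the third IL-2 library at 16 h in Samhd1 (1240), the second PBS library at 16 h in Mthfd1l (75.5) and the third repeated-FP library in Rrm1 (36.5, others 47.8 to 50).

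Effects that differed between tables by the interaction test are listed here with their log2 differences. Time and table cannot be told apart in them beyond the PBS correction. The FP effect was larger at 16 h than at 1.5 h in Rrm2 (3.104), Tyms (1.804), Rrm1 (1.781) and Dut (1.484). From 16 to 72 h it was larger in Rrm2 (1.633) and Dck (1.027) and smaller in Dctd (-1.807) and Mthfd1 (-1.083). From 72 to 168 h it was smaller in Rrm2 (-4.208), Rrm1 (-2.659), Tyms (-2.356) and Dut (-2.155). The IL-2 effect from 1.5 to 16 h was smaller in Ctps (-1.789), Dctd (-1.744) and Nme1 (-1.615) and larger in Rrm2 (1.179). In vitro it was smaller than in mice in Ctps (-1.185), Nme1 (-1.107), Ppat (-1.026) and Umps (-1.02).

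Of the 2 libraries at 4 h left out of all groups, the one titled as FP had Cad at 244 CPM (unscaled), Ctps at 66, Shmt2 at 174, Mthfd1l at 152 and Dctd at 30.7, above the 3 PBS libraries in each. The one titled as PBS had 69.2, 23.6, 43.7, 56.9 and 5.85 for the same genes.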

How the results depend on the processing

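No called member reversed its direction under any alternative. The counts at 4 h moved most. Of the 4 members called after IL-2 at 4 h, library totals alone gave 7, DESeq2 8, the lane as a covariate 1, the compared groups alone 0 and leaving out a replicate 0 to 3 (0 without IL-2 library 2 or any PBS library). The 4 after FP at 4 h became 7 with library totals alone, 9 with DESeq2 and 0 with the compared groups alone. Leaving out a replicate gave 0 to 1. No lane count is given for FP, as only the first FP library shared a lane with PBS. The IL-2 and PBS libraries all shared the same lane, so the lane count after IL-2 says nothing of a lane difference between them. The single call after IL-2 at 16 h became 0 with the compared groups alone, and 0 to 1 on leaving out a replicate (0 without IL-2 library 2, 3 or 4 or PBS library 1, 2 or 4). At 72 h the count after FP ranged from 12 to 28 (without PBS library 3 and FP library 4), and against IL-2 from 15 to 28 (15 without IL-2 library 3). At high dose edgeR with DESeq2's size factors called 1, DESeq2 8, and leaving out a replicate gave 0 to 1 (1 without PBS library 2). For these changes the cause was not tested. The share of all genes called in each alternative fit is not given in this section. A changed count of members therefore cannot be told from a change over all genes.

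With the replicate number as a block, the counts were 14 after IL-2 and 15 after FP at 4 h. At 72 h they were 0 after IL-2 and 28 after FP. Same-numbered FP and PBS libraries at 72 h correlated at 0.0758 to 0.218, and whether the numbers pair them is not known. The block moved no other count of members by over 1.5 times.

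Depth (12.2 M reads or more) left all 32 members testable. With 3 or 4 libraries a group, the wide spread at 4 h and high dose limits what can be called.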
